A study of Mus musculus with 48 samples.

Results

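The nitric oxide synthases and the genes that make, move and consume arginine were described in mouse melanoma tumors treated with anti-PD-1. The 10 genes were listed by name and not by their values. They are the synthases Nos2, Nos1 and Nos3, the arginases Arg1 and Arg2, the arginine-making enzymes Ass1 and Asl, Gch1 of cofactor synthesis, and the carriers Slc7a1 and Slc7a2, and they make up 10 of 55450 genes in the count table. The tumors grew in the flank of C57BL/6J mice, which arrived aged 4 weeks and were kept 2 more weeks, after injection of B16-D5 cells, a subclone of the B16 melanoma line, 8 days before therapy. The first experiment holds 30 WT tumors, 3 each of Ctrl 0hrs and of Ctrl (no treatment), IgG and aPD1 (anti-PD-1) at D0, D1 and D3, where D0 is 6 hours after the start of therapy. The second holds 18 tumors at day 7, 3 each of Ctrl, IgG and aPD1 in WT and in iNOS KO mice. Antibodies were given at 250 µg in 200 µL on days 0 and 3, so D0 and D1 tumors were collected before the second dose. Whether D3 tumors were collected before or after it is not stated.

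A nitric oxide synthase turns arginine into citrulline and NO, a gas that at high output damages cells and at low output relaxes vessels. Nos2 encodes iNOS, the isoform that interferon and bacterial products switch on in macrophages, while Nos1 is the neuronal form, also found in skeletal muscle, and Nos3 is the form of vessel endothelium. Arginases compete for the same arginine and turn it into ornithine, the source of polyamines and proline, and Arg1 has long been used as the counterpart of Nos2 in macrophages. Ass1 and Asl rebuild arginine from citrulline, Gch1 begins the synthesis of tetrahydrobiopterin, which every synthase needs, and Slc7a1 and Slc7a2 carry arginine across the cell membrane.

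The labels limit what the genotype can show. The melanoma cells carry no iNOS deletion of the mice they grew in, so only host cells can lack iNOS, and the KO allele is not named. Every comparison of KO with WT rests on the titles, since the separate genotype label is WT throughout, also for the 9 tumors titled KO. Depth on genes ran from 25574203 to 47687872 counts in the first experiment and from 11625862 to 40959309 in the second. A count of 0 allows up to 3 counts, between 0.0688 and 0.197 CPM (counts per 1000000 of the normalized total). Counts on 2015 sensory receptor genes, taken as background, came to 8.88%, 3.14% and 2.20% of the library in WT aPD1 replicates 3 and 4 and KO Ctrl replicate 1 when spread over all exons, and to at most 0.795% elsewhere. The melanoma cell markers Pmel, Mlana, Tyr, Tyrp1, Dct, Mitf and Slc45a2 summed to between 9104 and 19775 CPM, and none of the 7 was at 0 in any library.

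None of the 10 genes differed between conditions at an adjusted p-value under 0.05 in any of the 27 comparisons with edgeR's quasi-likelihood test. Of the 270 tests of a member, 34 had an unadjusted p-value under 0.05, 13 of them of Arg2, and DESeq2 gave 5 adjusted p-values under 0.05. Shares of all genes for these counts are not given beside them, and they are not read as a result about the members. At an adjusted p-value under 0.05, edgeR's test called 0% of 26848 genes in every comparison of the first experiment. In the second it called 0.587% of 30837 genes between KO Ctrl and WT Ctrl, 0.188% between KO IgG and KO Ctrl, 0.0422% between KO aPD1 and KO Ctrl, 0.00973% between KO and WT averaged over treatments, 1.66% for any difference among the 6 conditions, and 0% in the rest. What follows therefore describes levels, their spread and their order.

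**Figure D1:**
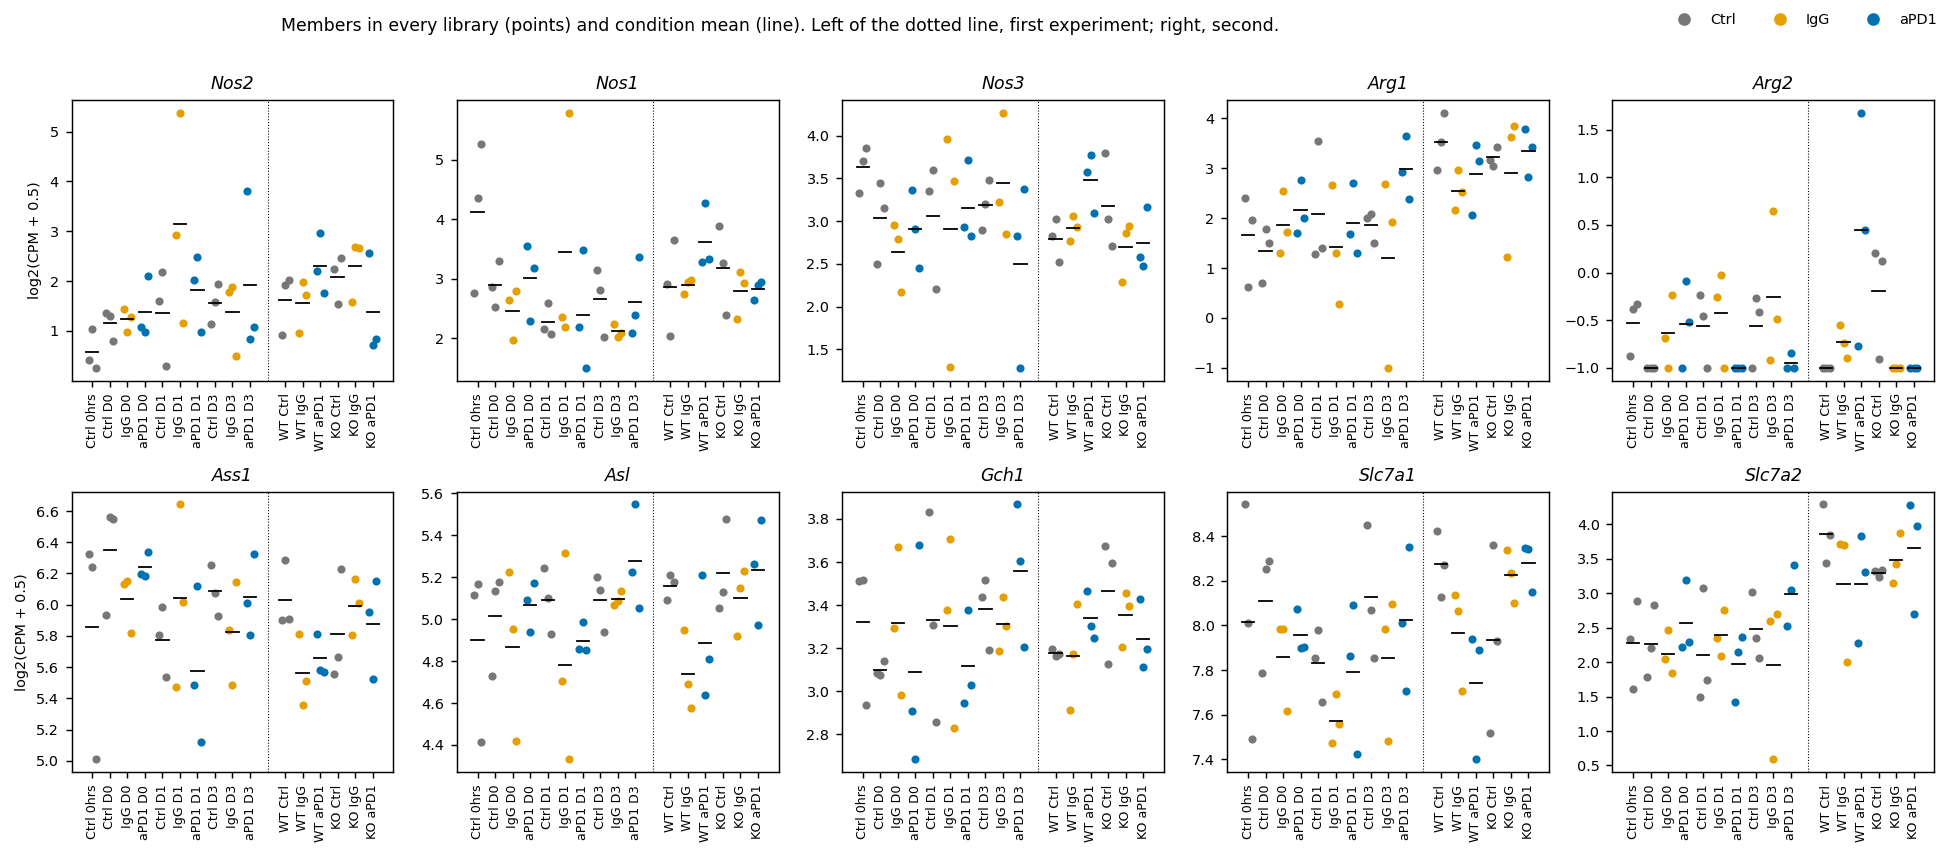
Levels of the 10 members in all 48 libraries. Each panel is 1 gene, with log2(CPM + 0.5) on the vertical axis (scaled per gene) and the 16 conditions on the horizontal axis. Points are tumors, colored by treatment, and lines are condition means. Single points far above the rest stand out for Nos2 (40.97 CPM in IgG D1 replicate 4) and Nos1 (54.6 CPM in IgG D1 replicate 6), while Ass1, Asl, Gch1 and Slc7a1 lie within a narrow range.

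Nos2 (ENSMUSG00000020826.8, chromosome 11 of GRCm38, 78920787 to 78960254, plus strand), the gene targeted in the KO mice, was read in all 48 libraries, including all of those labelled KO. Its level was 4.21, 2.41 and 4.98 CPM in the KO Ctrl tumors, 2.47, 5.92 and 5.83 CPM in KO IgG and 5.40, 1.15 and 1.296 CPM in KO aPD1. The WT tumors had 1.40, 3.28 and 3.56 CPM in Ctrl, 1.45, 3.43 and 2.81 CPM in IgG and 4.09, 7.28 and 2.87 CPM in aPD1. The 2 genotypes overlapped in every treatment, and the median was 4.21 CPM in the 9 KO and 3.28 CPM in the 9 WT tumors. KO minus WT averaged over treatments was 0.18 on the log2 scale (standard error 0.333, adjusted p = 1 from edgeR), and −0.16 without KO aPD1 replicate 1. Since the allele is not given and the table has 1 count per gene, these counts do not tell whether reads come from a disrupted transcript of the host or from the injected cells, and they do not check the labels.

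The direction of the Nos2 difference between genotypes was not the same in the 3 treatments. It was 0.50 in Ctrl, 0.89 in IgG and −0.85 in aPD1 on the log2 scale (standard errors 0.577, 0.580 and 0.581). In Ctrl and aPD1 the Nos2 values lay close to the medians of all genes tested, given below with Slc7a2 and Nos1. The median of all genes tested thus changed sign between these 2 treatments as well, and what lies behind either change was not tested. The change from IgG to aPD1 was −0.86 in KO and 0.88 in WT tumors. The difference of these 2 changes, tested as an interaction, was −1.74 (standard error 0.821, unadjusted p = 0.0469, adjusted p = 0.670 from edgeR). The KO aPD1 tumors at 1.15 and 1.296 CPM were the lowest of the 18, and the highest, WT aPD1 replicate 3, is also the library with the most background. Without that library the interaction was −1.36, and without KO aPD1 replicate 1, the highest of its condition, it was −2.81. The difference of −0.85 in aPD1 became −0.42 and −1.89 without these same libraries, and −0.33 with the melanoma markers as a covariate, added after seeing the data. Likewise the change from IgG to aPD1 became 0.50 in WT and −1.94 in KO tumors.

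In the first experiment Nos2 was low before and during therapy except in a few tumors. It had 0.826, 1.56 and 0.695 CPM in Ctrl 0hrs, 2.07, 1.98 and 1.24 CPM in Ctrl D0, 2.23, 1.47 and 1.93 CPM in IgG D0 and 1.61, 1.47 and 3.77 CPM in aPD1 D0. At D1 it had 2.53, 4.07 and 0.734 CPM in Ctrl, 7.05, 40.97 and 1.72 CPM in IgG and 3.57, 5.09 and 1.48 CPM in aPD1. At D3 it had 1.70, 2.49 and 3.31 CPM in Ctrl, 2.94, 3.17 and 0.913 CPM in IgG and 13.6, 1.29 and 1.62 CPM in aPD1. A single IgG tumor thus held 20.97 times the median of the 30 tumors, and a single aPD1 tumor at D3 was the second highest.

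These tumors set the comparisons of Nos2. At D0 the log2 fold change from IgG to aPD1 was 0.28 (standard error 0.853, adjusted p = 1 from edgeR), −0.23 without aPD1 D0 replicate 5 and −0.20 with the replicate number as a block. At D1 it was −2.29 (standard error 0.876, unadjusted p = 0.0147, adjusted p = 1), and IgG against Ctrl was 2.76 (standard error 0.894, unadjusted p = 0.00480, adjusted p = 0.859). Without IgG D1 replicate 4 these became −0.43 and 0.90. At D3 the change from IgG to aPD1 was 1.24 (standard error 0.854, adjusted p = 1), which turned to −0.71 without aPD1 D3 replicate 3. Ctrl D3 tumors all lay above Ctrl 0hrs tumors, by 1.28 on the log2 scale (standard error 0.869, adjusted p = 0.803), where groups did not overlap for 7.72% of all genes tested.

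The tumor with the highest Nos2 also had the highest level of several genes known to induce it. IgG D1 replicate 4 ranked first of 30 for Ifng (interferon gamma) at 6.95 CPM against a median of 0.137 CPM, for Tnf at 8.82 against 1.60 CPM, for Irf1 at 374.3 against 41.4 CPM and for Nfkb1 at 96.6 against 69.6 CPM. It was not the highest for Il1b at 1.74 CPM (rank 4) or Rela at 94.8 CPM (rank 5). aPD1 D3 replicate 3, second for Nos2, held rank 3 for Ifng and Irf1 (2.62 and 214.2 CPM). aPD1 D0 replicate 5, second for Ifng and Irf1 (3.72 and 246.0 CPM), had 3.77 CPM of Nos2 against a median of 1.95 CPM. IgG D1 replicate 2, with 7.05 CPM of Nos2, had 39.1 CPM of Irf1, under the median.

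**Figure D2:**
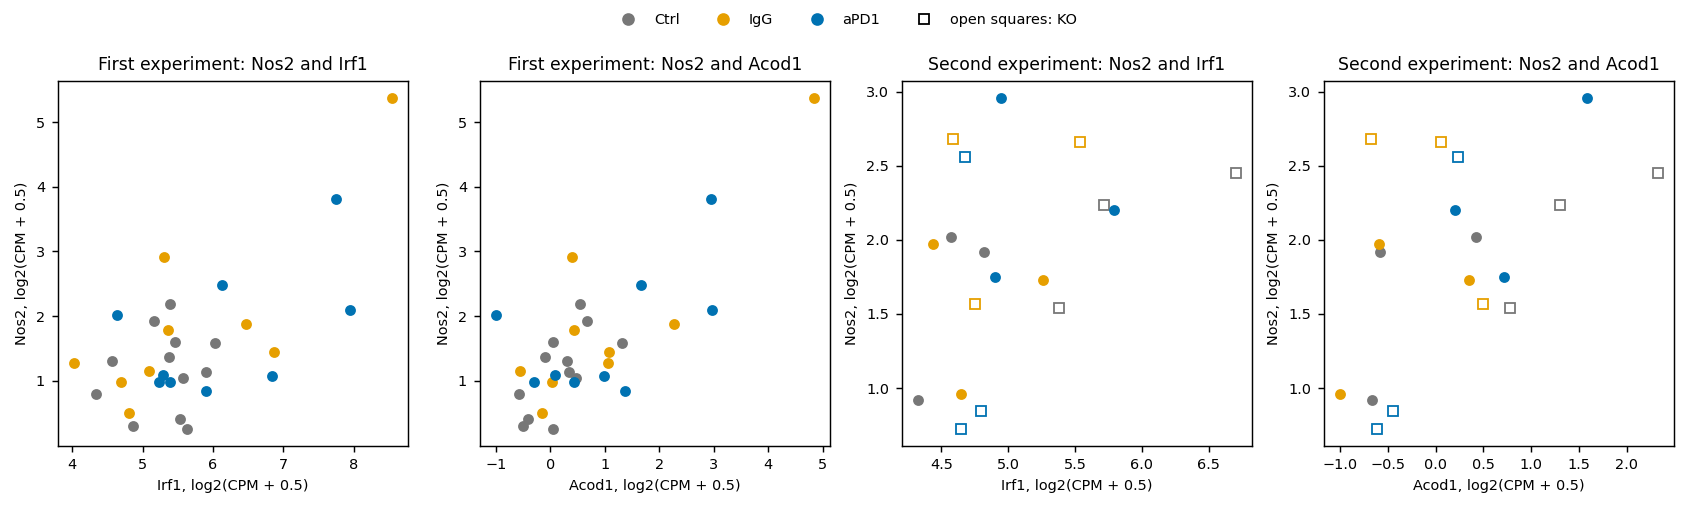
Nos2 against Irf1, a transcription factor of the interferon response, and Acod1, an enzyme of activated macrophages, in every tumor. Both axes are log2(CPM + 0.5), each point is 1 tumor, colors give the treatment and open squares the KO tumors. In the first experiment IgG D1 replicate 4 stands at the upper right of both panels, apart from the other tumors, with 374.3 CPM of Irf1 and 28.2 CPM of Acod1.

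Among the 15109 other genes with a mean of at least 1 CPM in the first experiment, those most like Nos2 over the 30 tumors were Stat3 (Pearson r of log2 levels 0.81), Apobec3 (0.77), Acod1 (0.76), Apol10b (0.74) and Herc6 (0.73). Over the 18 tumors of the second experiment the same genes gave −0.01, −0.05, 0.52, 0.32 and −0.03. These are descriptions over tumors that share the libraries and their depth, and the few tumors of high Nos2 weigh heavily in them. Markers of macrophages, the cells in which iNOS is best known, summed to between 290 and 1546 CPM in the first experiment, and their mean log2 level had r = 0.07 with Nos2 (rho = 0.03, permutation p = 0.711 and 0.867, adjusted p = 0.841 and 0.935 over 90 relations). Markers of T cells had r = 0.49 (rho = 0.42, permutation p = 0.00425 and 0.0222, adjusted p = 0.0319 and 0.125), 0.58 on deviations from the condition means and 0.38 without the 2 tumors of most extreme T cell markers. At day 7 it was 0.43 (rho = 0.40, adjusted p = 0.276 and 0.387 from the permutation test).

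Nos3 rather than Nos2 was the most abundant synthase message per length of exon. Per kb of exon its median level was 2.07 CPM in the first experiment, against 0.484 CPM for Nos1 and 0.443 CPM for Nos2, and in the second these were 1.73, 0.644 and 0.760 CPM. Nos3 was the highest of the synthases in 26 of 30 and in 18 of 18 tumors. Nos2 led in IgG D1 replicate 4, where it made up 91.7% of the summed level per kb, and in aPD1 D3 replicate 3 at 61.4%. Nos1 led in IgG D1 replicate 6 at 62.4% and in Ctrl 0hrs replicate 3, where its 48.9% barely differed from the 48.8% of Nos3. The share of Nos2 had a median of 16.5% and 22.2% in the 2 experiments.

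**Figure D3:**
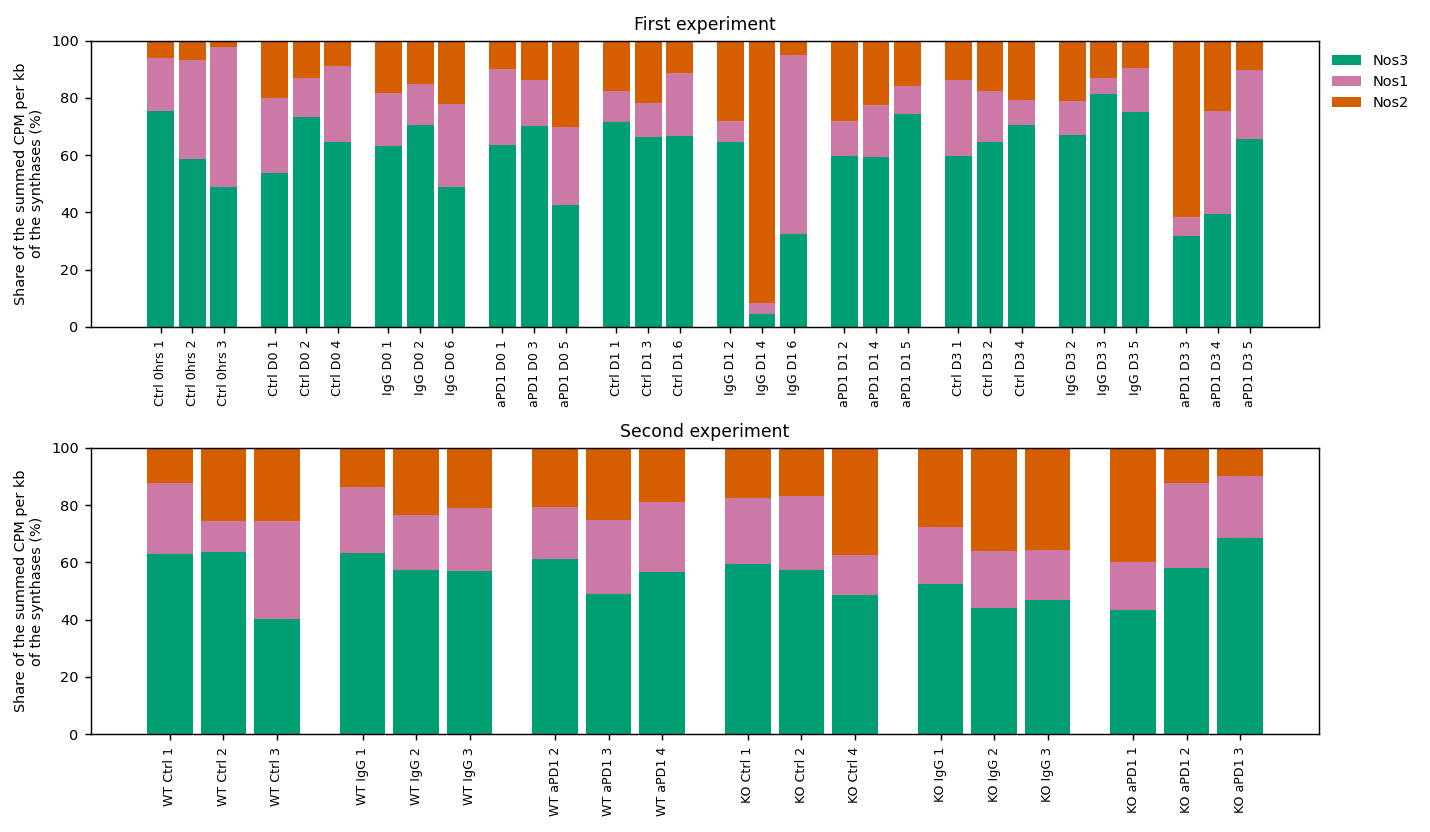
Share of each synthase in the summed level per kb of exon of Nos1, Nos2 and Nos3, in percent, for each library. Bars are tumors, grouped by condition. Nos3 fills the largest part of most bars, the Nos2 part reaches 91.7% in IgG D1 replicate 4, and the Nos1 part reaches 62.4% in IgG D1 replicate 6.

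Nos1 (ENSMUSG00000029361.18, chromosome 5, 117781032 to 117958840, plus strand) was highest in 3 tumors of the first experiment. It had 6.26, 19.9 and 37.8 CPM in Ctrl 0hrs, 3.96, 5.55 and 3.70 CPM in Ctrl D1, 4.63, 4.07 and 54.6 CPM in IgG D1 and 4.06, 10.6 and 2.33 CPM in aPD1 D1. The other conditions of the first experiment lay between 3.43 and 11.1 CPM. All Ctrl 0hrs tumors exceeded all Ctrl D1 tumors (8.06% of genes tested did not overlap there). The log2 fold changes were −2.27 at D1, −1.58 at D0 and −1.80 at D3 (standard errors 0.744, 0.726 and 0.730, unadjusted p = 0.00520, 0.0389 and 0.0211, adjusted p = 0.455, 0.706 and 0.699 from edgeR). At D1 IgG against Ctrl was 2.26 and aPD1 against IgG was −1.89 (standard errors 0.743 and 0.733, adjusted p = 0.859 and 1). Without IgG D1 replicate 6 these were −0.0053 and 0.33.

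The 3 tumors of high Nos1 are also the 3 with the highest level of skeletal muscle markers. The 8 muscle markers, among them Acta1, Ckm and Myh4, summed to 7373 CPM in IgG D1 replicate 6, 6259.5 CPM in Ctrl 0hrs replicate 3 and 3454 CPM in Ctrl 0hrs replicate 2, against a median of 16.4 CPM. The keratinocyte markers summed to 743.8, 4799 and 310.6 CPM in these tumors, against a median of 2.48 CPM. Over the 30 tumors Nos1 had r = 0.82 with the muscle markers (rho = 0.72, permutation p = 1e-05, the smallest that 100000 permutations can give, and 2e-05, adjusted p = 0.00015 and 0.00045 over 90 relations), 0.80 on deviations from the condition means and 0.75 without the 2 tumors farthest from the median. With the keratinocyte markers it had r = 0.83 (rho = 0.62, adjusted p = 0.00015 and 0.00315), and 0.67 without the 2 farthest tumors. With the muscle markers added to the fit, a choice made after the data were seen, Ctrl D1 against Ctrl 0hrs became −0.13 (standard error 0.566) and IgG D1 against Ctrl D1 became 0.64 (standard error 0.489). The part of either tissue in the Nos1 values was not tested beyond this. In bulk tumors a larger number of cells of a type and more RNA per cell cannot be told apart.

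At day 7 muscle markers summed to at most 480.3 CPM and Nos1 did not follow them. It had r = −0.14 with the muscle markers (rho = −0.24, permutation p = 0.589 and 0.334, adjusted p = 0.828 and 0.614). Nos1 had 9.18, 18.8 and 9.56 CPM in WT aPD1. These values lay above each of the KO aPD1 tumors at 5.71, 6.91 and 7.21 CPM, where 22.3% of all genes tested did not overlap. The log2 fold change of Nos1 for KO against WT was −0.91 (standard error 0.402, adjusted p = 0.143 from edgeR), while the median of all genes tested in this comparison was −0.91 as well. It was −0.15 with the background as a covariate and −0.44 without the 3 libraries of most background.

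Nos3 (ENSMUSG00000028978.12, chromosome 5, 24364810 to 24384474, plus strand) ranged from 1.94 to 18.7 CPM in the first experiment. It had 15.1, 1.96 and 10.6 CPM in IgG D1, 8.82, 18.7 and 6.74 CPM in IgG D3 and 6.599, 1.94 and 9.90 CPM in aPD1 D3, so tumors of 1 condition spread widely and the conditions overlapped. At D3 aPD1 minus IgG was −0.89 on the log2 scale (adjusted p = 1 from edgeR, standard error 0.559), −0.33 without IgG D3 replicate 3, −0.49 without aPD1 D3 replicate 4 and −1.42 without aPD1 D3 replicate 5. The 2 tumors of lowest Nos3, aPD1 D3 replicate 4 and IgG D1 replicate 4, were also the lowest in endothelial markers, and the latter is the tumor of highest Nos2. Over the 30 tumors Nos3 had r = 0.90 with the 8 endothelial markers, among them Pecam1, Cdh5 and Kdr (rho = 0.87, permutation p = 1e-05 for each, adjusted p = 0.00015 and 0.0003), 0.90 on deviations from the condition means and 0.82 without the 2 tumors farthest from the median.

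The genes most like Nos3 in the first experiment were Sox18, a transcription factor of vessel development (r = 0.92), Plvap (0.90), Pecam1 (0.90), Mmrn2 (0.90) and Robo4 (0.89), and Pecam1 and Robo4 are themselves on the marker list. In the second experiment these gave 0.15, −0.22, −0.08, −0.11 and 0.21, and the endothelial markers gave r = 0.05 with Nos3 (rho = 0.02, adjusted p = 0.922 and 0.975 from the permutation test), where they summed to between 151 and 453 CPM. Without the 3 libraries of most background (chosen after the data were seen) r was 0.65 over 15 tumors. Nos3 had 11.4, 13.2 and 8.08 CPM in WT aPD1, 6.61, 7.66 and 5.23 CPM in WT Ctrl, 6.30, 7.85 and 7.14 CPM in WT IgG and 5.51, 5.04 and 8.50 CPM in KO aPD1. All WT aPD1 tumors lay above all WT Ctrl and all WT IgG tumors, where 24% and 11.9% of genes did not overlap. The log2 fold change was 0.74 for WT aPD1 against WT Ctrl and −0.78 for KO aPD1 against WT aPD1 (standard errors 0.309 and 0.309, adjusted p = 0.145 and 0.136 from edgeR). The medians of all genes in these comparisons were 0.96 and −0.91. Without the 3 libraries of most background, Nos3 gave 0.78 and −0.80, with unadjusted p = 0.0494 and 0.0428 and adjusted p = 1 for each from edgeR. With the background as a covariate it gave 0.38 and −0.37, and with the melanoma markers as a covariate, added after seeing the data, 0.29 and −0.32. Nos3 shares 25.2% of its exonic bases with the antisense gene Gm15587 and 7.12% with Atg9b on the opposite strand, which had 364 and 5249 counts in all against 13767 for Nos3.

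**Figure D4:**
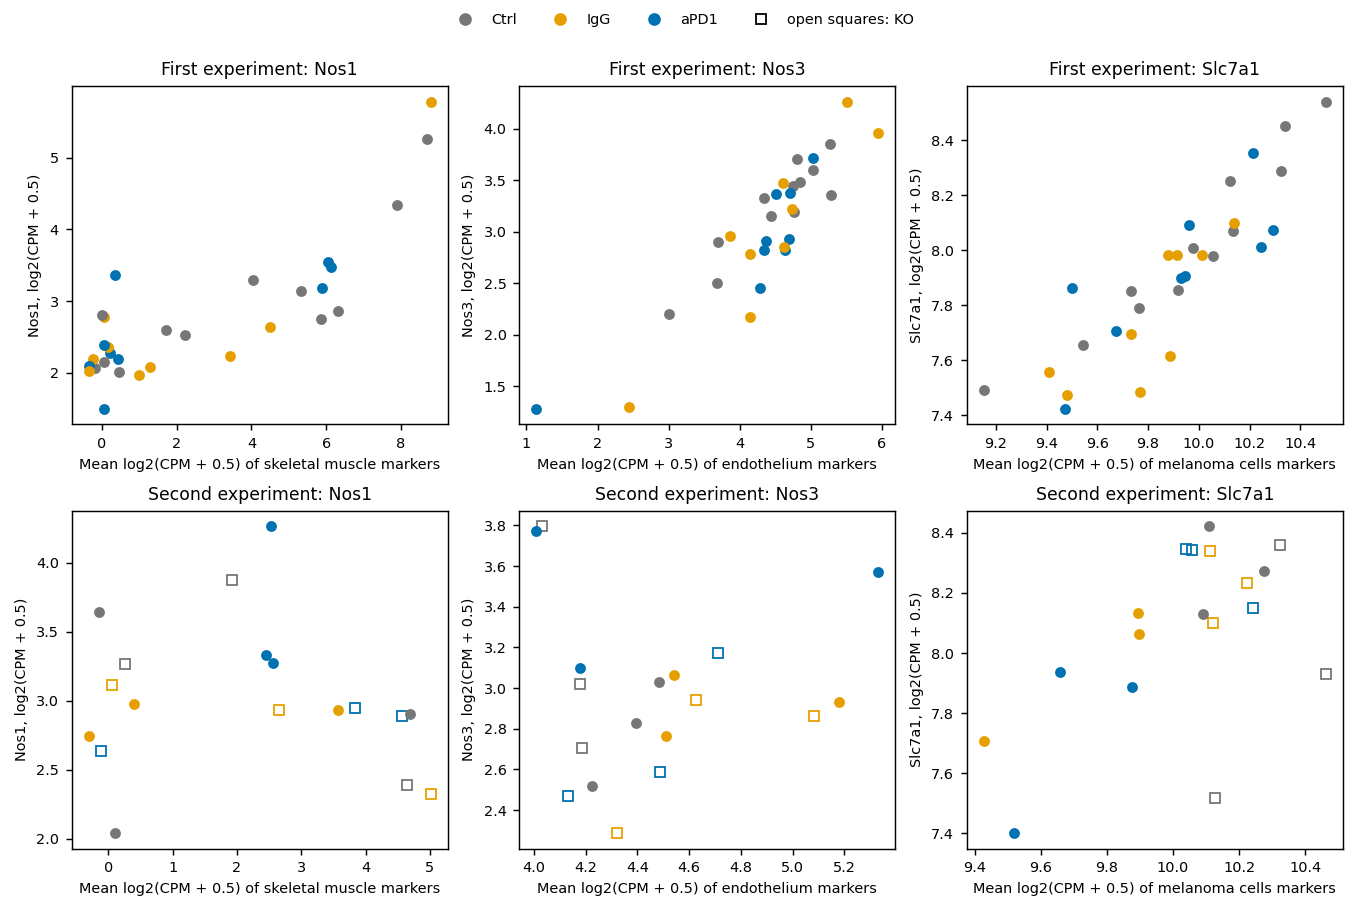
Nos1, Nos3 and Slc7a1 against the markers of skeletal muscle, endothelium and melanoma cells. Axes are log2(CPM + 0.5) of the gene and the mean of log2(CPM + 0.5) over the markers, the upper row holds the 30 tumors of the first and the lower row the 18 tumors of the second experiment. Points are tumors, colors give the treatment and open squares the KO tumors. The upper panels have r of 0.82, 0.90 and 0.88, the lower ones −0.14, 0.05 and 0.56.

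Arg1 (ENSMUSG00000019987.9, chromosome 10, 24915221 to 24927484, minus strand) was almost the only arginase message. Its share of the summed arginase level per kb had a median of 98.9% and 99.7% in the 2 experiments. In the first experiment it had 3.48, 3.74 and 2.35 CPM in Ctrl D3, 5.88, 0 and 3.28 CPM in IgG D3 and 7.08, 11.9 and 4.70 CPM in aPD1 D3. All aPD1 tumors at D3 lay above all Ctrl tumors, where 6.95% of genes did not overlap, and IgG D3 replicate 3 was the only 1 of 48 libraries without a count. The log2 fold change at D3 was 1.31 against Ctrl and 1.37 against IgG (standard errors 0.943 and 0.945, unadjusted p = 0.177 and 0.159, adjusted p = 1 for each from edgeR). Against IgG it was 0.80 without IgG D3 replicate 3, the library at 0, and 2.29 without IgG D3 replicate 2. Without aPD1 D3 replicate 4 the values against Ctrl and IgG were 0.91 and 0.99.

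At day 7 Arg1 was lower in WT IgG than in WT Ctrl tumors, without overlap, where 12.8% of all genes tested did not overlap. It had 7.34, 10.97 and 16.7 CPM in WT Ctrl, 3.95, 7.32 and 5.25 CPM in WT IgG and 3.69, 10.49 and 8.27 CPM in WT aPD1. The KO tumors had 8.45, 7.79 and 10.3 CPM in Ctrl, 1.82, 11.9 and 13.8 CPM in IgG and 13.4, 6.53 and 10.3 CPM in aPD1. The log2 fold change of WT IgG against WT Ctrl was −1.08 (standard error 0.510, unadjusted p = 0.0465, adjusted p = 0.565 from edgeR), and without the filter on low counts the adjusted p-value was 0.0153. Between genotypes Arg1 differed by −0.40, 0.74 and 0.44 in Ctrl, IgG and aPD1 (adjusted p = 0.656, 0.645 and 0.535). Arg1 and the macrophage markers had r = −0.17 and −0.03 over the tumors of the 2 experiments (rho = −0.12 and 0.07, adjusted p = 0.568 and 0.959 for r from the permutation test).

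The balance of Nos2 and Arg1, often read as a sign of macrophage state, lay on the side of Arg1 in most tumors. Per kb of exon, Nos2 exceeded Arg1 in 3 of the 30 tumors of the first experiment and in 0 of 18 of the second. The 3 were IgG D1 replicates 4 and 6 and IgG D3 replicate 3, whose Arg1 was at 0 and which has no log ratio. The log2 ratio of Nos2 to Arg1 had a median of −1.56 with a range from −4.20 to 3.40 over the other 29 tumors of the first experiment, and of −2.26 with a range from −3.97 to −0.55 in the second. At day 7 the mean log2 ratio was −3.25 ± 0.866 in KO aPD1 and −1.62 ± 0.843 in WT aPD1 (SD, n = 3). It was −1.59 ± 0.911 in KO IgG and −2.13 ± 0.277 in WT IgG, and −2.24 ± 0.387 in KO Ctrl and −3.11 ± 0.339 in WT Ctrl. The mean was thus lower in KO than in WT tumors after aPD1 and higher in IgG and Ctrl. The ratio was not tested.

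The genes most like Arg1 over the 30 tumors were Nes (r = 0.69), Slc7a2 (0.68), Pcdhb16 (0.68), Scube3 (0.67) and Ube2h (0.67), so that another member was among the first 5 of 15109 genes. Over the second experiment these gave −0.05, 0.53, 0.07, 0.57 and 0.05.

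Arg2 (ENSMUSG00000021125.6, chromosome 12, 79130777 to 79156301, plus strand), the mitochondrial arginase, was at 0 in 22 of 48 libraries and had at most 41 counts. Its values are therefore given as counts, which in WT aPD1 were 3, 41 and 18, in KO Ctrl 16, 1 and 22 and in WT IgG 6, 3 and 1. WT Ctrl, KO IgG and KO aPD1 had 0 counts in all 9 libraries. Between KO aPD1 and WT aPD1 the adjusted p-value was 0.124 from edgeR and 0.00829 from DESeq2. Of the 62 counts in WT aPD1, 59 lay in the 2 libraries of most background, replicates 3 and 4. How many of these counts are background was not worked out. With the background subtracted or as a covariate, edgeR did not call Arg2 between KO aPD1 and WT aPD1, as in the main fit. Arg2 also shares 19.96% of its exonic bases with Vti1b on the opposite strand. Its groups did not overlap in several further comparisons, where 5.45% (Ctrl D0 against Ctrl 0hrs), 12.1% (KO IgG against WT IgG), 17.6% (KO IgG against KO Ctrl) and 14% (KO aPD1 against KO Ctrl) of all genes did not overlap.

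Ass1 (ENSMUSG00000076441.9, chromosome 2, 31470207 to 31520672, plus strand) and Slc7a1 (ENSMUSG00000041313.14, chromosome 5, 148327410 to 148399904, minus strand) were the most abundant members per kb of exon, with medians of 27.2 and 21.3 CPM in the first and 23.1 and 24.3 CPM in the second experiment. Ass1, the step from citrulline to argininosuccinate, was above Slc7a1, the main carrier of cationic amino acids, in 27 of 30 tumors of the first and 9 of 18 of the second. Both followed the melanoma cell markers in the first experiment, and the 250 bases before their start sites are shown because a sequence shared with other genes of these cells could be looked for there. The promoter table, from RefSeq on GRCm38.p6, holds 4 of the 10 members. The bases run 5′ to 3′ on the strand of the gene, for Ass1 at chr2:31470020-31470269 (plus strand) and for Slc7a1 at chr5:148399905-148400154 (minus strand), and capitals mark CACGTG, the palindrome known as a site for helix-loop-helix factors such as Myc and Mitf.
Ass1: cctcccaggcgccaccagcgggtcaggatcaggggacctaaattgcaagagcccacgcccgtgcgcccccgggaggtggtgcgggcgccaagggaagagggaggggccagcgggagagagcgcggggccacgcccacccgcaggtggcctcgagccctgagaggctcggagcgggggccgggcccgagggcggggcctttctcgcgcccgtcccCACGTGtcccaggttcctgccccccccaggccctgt
Slc7a1: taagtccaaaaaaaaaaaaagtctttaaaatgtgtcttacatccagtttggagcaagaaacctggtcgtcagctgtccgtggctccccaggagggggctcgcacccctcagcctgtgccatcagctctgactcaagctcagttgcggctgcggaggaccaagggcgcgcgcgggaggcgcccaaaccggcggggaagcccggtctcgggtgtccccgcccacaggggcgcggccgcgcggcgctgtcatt
For Ass1 the RefSeq start lies inside the gene as the count table's annotation draws it. The promoter of Nos1 and a second promoter of Slc7a1, neither shown, lie wholly inside their genes. The motif CACGTG was searched as written, which reads the same on both strands, and it stood once before Ass1, its first base 36 bases before the start, and in none of the promoters of Slc7a1, Nos1 and Gch1. It occurs in 6.02% of 32851 promoters of the same length. CATGTG (both strands, 12.3% of promoters) and TGATGNAAT (both strands, 0.816%), the latter a site of the amino acid response, were in none of the 4 genes. GGGCGG, searched on both strands, stood once before Ass1, once before Slc7a1 and 2 times before Gch1, and it occurs in 32.7% of promoters.

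Ass1 ranged from 31.7 to 99.4 CPM in the first experiment. The aPD1 D0 tumors, at 72.9, 72.2 and 80.2 CPM, lay above the IgG D0 tumors at 69.5, 70.7 and 56.1 CPM, where 7.70% of genes did not overlap, and the log2 difference was 0.20 (standard error 0.296, adjusted p = 1 from edgeR). It was 0.0037 with the background and 0.0097 with the melanoma markers as a covariate, the latter added after seeing the data, and 0.12 without IgG D0 replicate 6. In the second experiment it had 59.3, 77.6 and 59.6 CPM in WT Ctrl, 55.7, 40.5 and 45.2 CPM in WT IgG and 55.5, 71.1 and 64.0 CPM in KO IgG. WT IgG lay under WT Ctrl by 0.47 on the log2 scale and KO IgG above WT IgG by 0.43 (standard errors 0.200 and 0.200, unadjusted p = 0.0277 and 0.0436, adjusted p = 0.565 and 0.626 from edgeR). Over the 30 tumors of the first experiment Ass1 had r = 0.74 with the melanoma markers (rho = 0.71, permutation p = 1e-05 for each, adjusted p = 0.00015 and 0.0003), 0.81 on deviations from the condition means, 0.67 without the 2 farthest tumors, and −0.52 with the macrophage markers (adjusted p = 0.0254 and 0.0333 for r and rho). In the second it had r = 0.56 with the melanoma markers (rho = 0.52, adjusted p = 0.104 and 0.244).

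Asl (ENSMUSG00000025533.15, chromosome 5, 130011258 to 130029247, minus strand), which releases arginine from argininosuccinate, varied least of the members together with Slc7a1 and Gch1 in the first experiment, between 19.6 and 46.3 CPM. Of the day 7 tumors, those of WT IgG at 30.4, 25.3 and 23.4 CPM lay under the WT Ctrl tumors at 33.6, 36.6 and 35.7 CPM. In this comparison 12.8% of all genes tested did not overlap. On the log2 scale the Asl difference was −0.42 (standard error 0.181, unadjusted p = 0.0316, adjusted p = 0.565 from edgeR). For Asl, KO minus WT averaged over treatments was 0.26 (standard error 0.104, unadjusted p = 0.0211, adjusted p = 0.332). It was 0.01 with the melanoma markers as a covariate, added after seeing the data, and Asl had r = 0.55 and 0.75 with these markers in the 2 experiments (rho = 0.52 and 0.62, adjusted p = 0.0178 and 0.00594 for r and 0.0333 and 0.0865 for rho from the permutation test).

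Of the members, 4 did not overlap between WT IgG and WT Ctrl, namely Arg1, Ass1 and Asl, all lower after IgG, and Arg2, higher after IgG, and 12.8% of all genes tested did not overlap there. The melanoma markers summed to between 9823 and 14752 CPM in WT IgG and to between 15277 and 16975 CPM in WT Ctrl. With these markers as a covariate, added after seeing the data, the log2 difference of Arg1 was −1.01, that of Ass1 went from −0.47 to −0.25 and that of Asl from −0.42 to −0.13. For Ass1 in KO IgG against WT IgG the same fit gave 0.19.

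Slc7a1 was the most abundant carrier by far, with 95.4% to 99.3% of the summed level per kb of both carriers in the first experiment and 90.7% to 97.9% in the second. It ranged from 171 to 372 CPM and from 168 to 343 CPM. In the second experiment it had 245, 168 and 236 CPM in WT aPD1, 325, 324 and 284 CPM in KO aPD1 and 343, 279 and 309 CPM in WT Ctrl, so WT aPD1 lay under both without overlap (22.3% and 24% of all genes did not overlap in these comparisons). KO against WT after aPD1 was 0.52 and WT aPD1 against WT Ctrl was −0.52 on the log2 scale (standard errors 0.208 and 0.208, unadjusted p = 0.0209 and 0.0215, adjusted p = 0.136 and 0.142 from edgeR). With the background as a covariate these were 0.01 and −0.05, without the 3 libraries of most background 0.38 and −0.37, and with the melanoma markers as a covariate, added after seeing the data, 0.11 and −0.07. The melanoma markers summed to between 9361 and 12883 CPM in WT aPD1 and to between 14884 and 16665 CPM in KO aPD1.

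Over the 30 tumors of the first experiment Slc7a1 had r = 0.88 with the melanoma markers (rho = 0.90, permutation p = 1e-05 for each, adjusted p = 0.00015 and 0.0003), 0.87 on deviations from the condition means and 0.86 without the 2 farthest tumors. It had −0.76 with the leukocyte markers (rho = −0.68, adjusted p = 0.00015 and 0.0009) and −0.68 with the macrophage markers (rho = −0.61, adjusted p = 0.00103 and 0.00669). In the second experiment it had −0.85 with the T cell markers (rho = −0.84, adjusted p = 0.0009 and 0.0018), −0.87 with the neutrophil markers (rho = −0.78, adjusted p = 0.0009 and 0.00576) and 0.56 with the melanoma markers (rho = 0.40, adjusted p = 0.104 and 0.387). Without the 3 libraries of most background, these were −0.72, −0.71 and 0.56, and those with the leukocyte and macrophage markers moved from −0.28 and −0.08 to −0.82 and −0.77. At day 7 the neutrophil markers S100a8, S100a9, Ly6g and Retnlg had a median of 0 CPM, and Cxcr2 and Mmp8 had 0.0145 and 0.147 CPM. Most of that list thus lay at or near the limit that a count of 0 allows. Its highest median was that of Csf3r at 5.60 CPM. The T cell markers summed to between 14.004 and 29.2 CPM in WT aPD1 and to between 1.96 and 4.10 CPM in KO aPD1. WT aPD1 replicates 3 and 4 are among the 3 libraries of most background, and its part in these sums was not tested.

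Slc7a2 (ENSMUSG00000031596.15, chromosome 8, 40862396 to 40922308, plus strand), the carrier known from activated macrophages, had between 1.005 and 10.2 CPM in the first and between 3.51 and 19.01 CPM in the second experiment. KO Ctrl tumors at 9.48, 8.91 and 9.62 CPM all lay under WT Ctrl tumors at 19.01, 10.3 and 13.8 CPM, where 17.7% of genes did not overlap. The log2 fold change was −0.62 (standard error 0.443, adjusted p = 0.399 from edgeR), −0.37 without WT Ctrl replicate 1, and the median of all genes was 0.49. Among the day 7 tumors Slc7a2 had r = −0.76 with the adipocyte markers (rho = −0.81, permutation p = 0.00027 and 0.0001, adjusted p = 0.00594 and 0.003).

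Gch1 (ENSMUSG00000037580.10, chromosome 14, 47153895 to 47189413, minus strand) had between 5.93 and 14.1 CPM in the first and between 7.03 and 12.3 CPM in the second experiment. WT aPD1 tumors, at 10.54, 9.38 and 8.99 CPM, lay above WT Ctrl tumors at 8.66, 8.46 and 8.53 CPM, where 24% of genes did not overlap. The difference was 0.17 on the log2 scale (standard error 0.207, adjusted p = 0.540 from edgeR), where the median of all genes was 0.96. It was 0.056 without WT aPD1 replicate 2 and −0.043 with the melanoma markers as a covariate, added after seeing the data. The tumor of highest Nos2 had 12.6 CPM of Gch1, and the tumor second for Nos2, aPD1 D3 replicate 3, had the highest Gch1 of the 30. The genes most like Gch1 were Vps16 (r = 0.75), Ccnd1 (0.70), Slc23a2 (0.70), Chmp4b (0.70) and Tor1aip2 (0.70), and over the second experiment none of them was above −0.03.

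**Figure D5:**
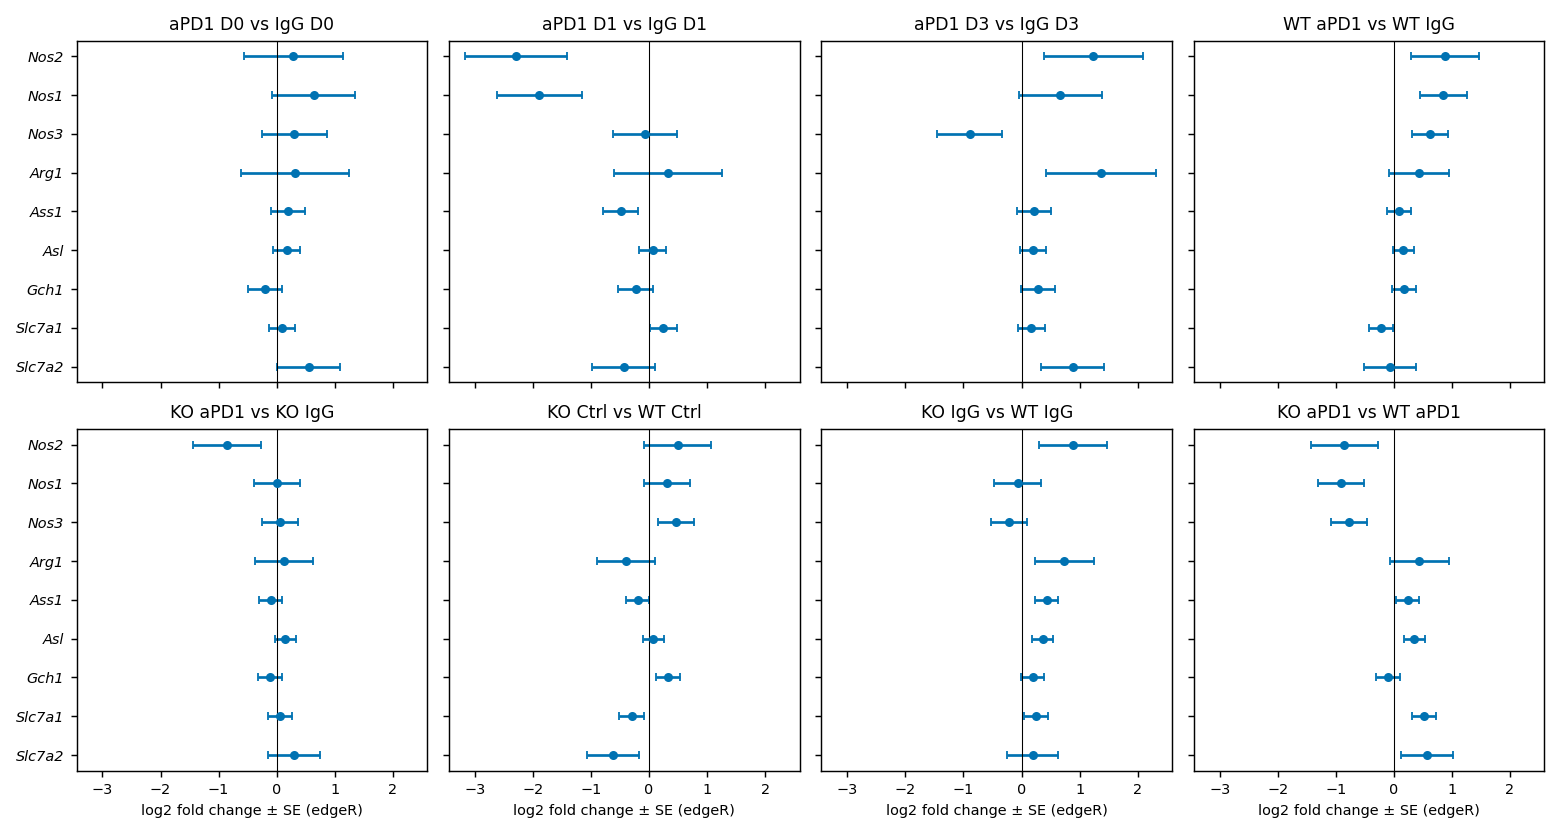
Log2 fold changes of 9 members with standard errors from edgeR in 8 comparisons, the first 5 for anti-PD-1 against IgG and the last 3 for KO against WT. Arg2 is left out because several groups had 0 counts. Points are estimates and bars 1 standard error. At D1 Nos2 and Nos1 lie at −2.29 and −1.89, and no member passed an adjusted p-value of 0.05 in any panel.

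Per kb of exon the order of the members was much the same in the 2 experiments, which were normalized separately and are not compared by a test. In the first it ran Ass1, Slc7a1, Asl, Nos3, Gch1, Arg1, Slc7a2, Nos1, Nos2 and Arg2, and in the second Slc7a1, Ass1, Asl, Arg1, Nos3, Gch1, Slc7a2, Nos2, Nos1 and Arg2. Arg1 moved up, from a median of 1.40 to 3.75 CPM per kb. Several neighbours in these orders changed places from tumor to tumor. In the first experiment Gch1 was above Arg1 in 15 of 30 tumors, Slc7a2 above Nos1 in 13 and Nos1 above Nos2 in 17, and in the second Nos2 was above Nos1 in 8 of 18.

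The other genes of these pathways were mostly not called. Of all genes tested, 0.587% passed between KO Ctrl and WT Ctrl and 1.66% for any difference among the 6 conditions of the second experiment. The 2 calls below fall in these comparisons. Lists of tetrahydrobiopterin synthesis, polyamines, arginine, ornithine and proline enzymes, other carriers, methylarginines, NO receptors, synthase partners and the inducers of Nos2 and Arg1 were tested in the same fits, and 2 genes passed. Irf1 was higher in KO Ctrl than in WT Ctrl tumors, the only 1 of the 7 inducers of Nos2 to pass there, by 1.48 on the log2 scale (standard error 0.328, adjusted p = 0.0410 from edgeR). It had between 41.1 and 104.1 CPM in KO Ctrl and between 19.5 and 27.7 CPM in WT Ctrl, the median of all genes was 0.49 in this comparison, and 10 of 16 alternatives made the same call. Oaz1, the antizyme that holds back polyamine synthesis, was the only 1 of 10 polyamine genes to pass for any difference among the 6 conditions of the second experiment (adjusted p = 0.0270 from edgeR). Its means ran from 86.0 ± 4.42 CPM in WT IgG to 142.5 ± 17.6 CPM in KO Ctrl (SD, n = 3), and 19 of 27 alternatives made the same call. The median log2 fold change of the Nos2 inducers was 1.14 for IgG against Ctrl and −0.74 for aPD1 against IgG at D1, with 0 of 7 passing, while all genes had medians of 0.04 and −0.01.

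Genes downstream of the arginases were expressed in all tumors at levels given here as median CPM of the first experiment, which do not correct for length and so do not rank the genes. Odc1, which turns ornithine into putrescine, had 226.8 CPM, its antizyme inhibitor Azin1 had 102.8 CPM and Oaz1 had 92.9 CPM. Oat, which links ornithine to proline, had 92.3 CPM, Aldh18a1 had 96.0 CPM and Prodh had 26.1 CPM. The urea cycle enzymes Otc and Cps1, known from liver, had medians of 0 and 0.108 CPM, at or near the limit that a count of 0 allows. Of the other carriers, Slc3a2 had 137.8, Slc7a6 had 23.2 and Slc7a7 had 9.76 CPM.

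Of the genes that serve or answer the synthases, those of tetrahydrobiopterin synthesis had 35.1 CPM for Spr and 11.4 CPM for Pts. Prmt5 and Prmt1, which methylate arginine in proteins, had 126.5 and 62.5 CPM, and Ddah1, which breaks down methylarginines that block the synthases, had 92.4 CPM. Gucy1a1, a subunit of the NO receptor, had 8.13 CPM, and the cGMP-dependent kinase Prkg1 and the cGMP phosphodiesterase Pde5a had 102.3 and 50.4 CPM. Hsp90aa1, a chaperone that binds synthases, had 1136 CPM. Of the inducers of Arg1, Hif1a had 318.1 and Stat6 had 167.5 CPM.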

How the data were processed

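RNA of 48 tumors was used, 3 in each of 16 conditions. According to the submitters' notes and the study's methods, adapters were removed with cutadapt 1.8.1, reads were aligned to mm10 with STAR 2.7.7a and genes of GENCODE vM21 were counted with RSEM 1.3.0. The deposited counts are whole numbers without normalization. The table's name refers to another counter, and whether strand was used is not given in the sources used here.

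Conditions were taken from the titles, because the treatment field matched them in 14 of 48 samples. The genotype field matched the titles in 39 of 48 and reads WT for the other 9, all titled KO. The 2 experiments were fitted separately by the quasi-likelihood test of edgeR 4.0.16 (R 4.3.3) after TMM normalization and a filter at a minimum count of 10, each condition having 1 coefficient. Benjamini-Hochberg adjustment ran over all genes tested, with a threshold of 0.05. CPM is the count per 1000000 of the TMM-adjusted total, and log2 levels use a pseudocount of 0.5. Correlations used two-sided tests of 100000 permutations. DESeq2 1.42.0 was an alternative. The fit was checked on simulated data. Sequences and figures were handled with matplotlib 3.10.9, scipy 1.17.1, numpy 2.4.6 and pandas 2.3.3 in Python 3.11.15.

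The members, the other gene lists and the comparisons were chosen with earlier results of these data known. Named genes are the 10 members, each other listed gene that passed, up to 3 further genes per list by mean level (some are not reported here), and the 5 genes most like each of Nos2, Nos3, Arg1 and Gch1. Irf1 and Acod1 were chosen for a plot after their values were seen. P-values measure the spread between tumors of 1 condition, since each library comes from 1 tumor as far as the labels say. Limits of 3 counts cover counting error only. Replicate numbers were not taken as pairs, because same-numbered libraries of different conditions had a median correlation of −0.03 (65 pairs) and −0.02 (36 pairs).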

Additional observations from a re-analysis of the deposited data

Results flagged for a closer look

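Arg2 moved in opposite directions under the same contrast. Untreated iNOS KO tumors had 39 counts in all where untreated WT tumors had 0, at least 15.3-fold higher, while iNOS KO tumors had 0 where WT tumors had 10 counts after IgG (at least 3.89-fold lower) and 62 after anti-PD-1 (at least 44.03-fold lower). Read as effects of treatment, the same counts make Arg2 at least 3.79-fold higher after IgG and at least 43.5-fold higher after anti-PD-1 than in untreated tumors of WT mice, and at least 15.7-fold and at least 15.5-fold lower in iNOS KO mice. The bounds set the group at 0 to 3 counts over its 3 libraries and keep the other group at its mean CPM as measured. That mean weights its 3 libraries equally whatever their depth, and its own counting error is not covered. The bounds thus cover counting error of the group at 0 only, and the contrasts share libraries. The difference between the contrasts was not tested. Of the 62 counts, 59 lie in replicates 3 and 4 of anti-PD-1 in WT mice, and 16 of the 39 lie in untreated iNOS KO replicate 1, which are the 3 libraries with the most counts on sensory receptor genes. Arg2 shares 19.96% of its exonic bases with Vti1b on the opposite strand, which had 82383 counts where Arg2 had 290. The part of either in these counts was not worked out.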

How the results depend on the processing

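Of 33 fold changes of members compared over all alternatives, 27 kept their sign in each, and in 20 of the 27 comparisons no member was called in any alternative. No replicate numbers were taken as pairs, and with the replicate number as a block 0 members were called in each comparison, while Nos2 in aPD1 D0 against IgG D0 turned to −0.20 and the genes called between KO Ctrl and WT Ctrl went from 181 to 144. Without the filter on low counts, 2 members were called for IgG D1 against Ctrl D1 (Nos1 2.29, adjusted p = 0.0129, and Nos2 2.80, adjusted p = 0.0236, from edgeR), 1 for Ctrl D1 against Ctrl 0hrs (Nos1), 1 for WT IgG against WT Ctrl (Arg1), and 2 for any difference in the first (Nos1, Nos2) and 2 in the second experiment (Arg1, Arg2). DESeq2 called 1 for KO aPD1 against WT aPD1 and 1 for WT aPD1 against WT Ctrl (Arg2 in both), 2 for any difference in the first (Nos1, Nos2) and 1 in the second experiment (Arg2). These settings can also call many more genes in all, as the counts at the end of this section show. Shares over all genes for the other comparisons are not given here. The calls are therefore not read as a result about the members. The melanoma marker covariate turned Gch1 in WT aPD1 against WT Ctrl to −0.043.

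Leaving out single libraries gave 0 to 1 members called for KO aPD1 against WT aPD1 and for WT aPD1 against WT Ctrl (Arg2 without WT aPD1 replicate 2), for any difference in the first experiment (Nos2 without IgG D1 replicate 6) and in the second (Arg2 without KO Ctrl replicate 1, 2 or 4, WT aPD1 replicate 2 or WT IgG replicate 3). Nos2 ranged from −0.23 to 0.55 for aPD1 D0 against IgG D0 (negative without aPD1 D0 replicate 5), from −0.71 to 1.71 for aPD1 D3 against IgG D3 (aPD1 D3 replicate 3) and from −0.16 to 0.35 for KO minus WT (KO aPD1 replicate 1). Nos1 ranged from −0.0053 to 2.78 for IgG D1 against Ctrl D1 and from −2.73 to 0.33 for aPD1 D1 against IgG D1 (both turned without IgG D1 replicate 6). On deviations from condition means, 7 relations to markers passed in place of 14 in the first and 1 in place of 9 in the second experiment. The genes called between KO aPD1 and WT aPD1 went from 0 to 2829 without the filter and 3034 with DESeq2, and those between KO Ctrl and WT Ctrl from 181 to 1349, 960 and, with the background as a covariate, 32. With single libraries left out, the genes called between KO aPD1 and WT aPD1 ran from 0 to 4959. Those between WT aPD1 and WT Ctrl ran from 0 to 4584. For any difference they ran from 0 to 239 in the first and from 291 to 6943 in the second experiment. The cause of these changes was not tested.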
